A study of Mus musculus and Homo sapiens with 22 samples.

Results

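The comparison set chromatin-associated RNA against nucleoplasmic RNA in mouse embryonic stem (mES) cells of the line V6.5, both probed in the living cell. It covered the 2305 transcripts that had a reactivity score at 100 or more of the same nucleotides in both fractions. These were 27.01% of the 8533 transcripts listed in both in vivo files. All icSHAPE files of the series together listed 43971 transcripts. Of the 8533 transcripts, 4357 had no nucleotide scored in both files and 1871 had at least 1 but fewer than 100. At the edge of the rule, 114 members had from 100 to fewer than 110 shared nucleotides, and 153 transcripts just outside had from 90 to fewer than 100.

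The series probed RNA structure by icSHAPE in chromatin, nucleoplasm and cytoplasm of HEK293 (a human embryonic kidney line) and V6.5 mES cells. For the in vivo groups, cells were incubated with the reagent NAI-N3 for 5 min at 37 °C and fractionated afterwards. For the in vitro groups, RNA was taken from the fractions, denatured at 95 °C, refolded in a magnesium-containing buffer and then given NAI-N3 for 5 min at 37 °C. Solvent (DMSO) samples served as the study's controls, and they were not analysed here. The labels name no allele and no further treatment for any of these groups. V6.5 is 1 line, each group held 1 file, and no source used here says whether replicates were combined in it.

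In the nucleus, RNA attached to chromatin includes transcripts still being made, unspliced precursors and noncoding RNAs that act at the chromatin. Finished transcripts are released into the nucleoplasm, where they are soluble and on their way to export. NAI-N3 attaches to the 2′-hydroxyl of nucleotides that move freely, so a high icSHAPE score marks a nucleotide that was flexible or unpaired, and a low score one held by base pairing, by a bound protein or by stacking. The question of the comparison was whether the same RNA was equally reactive at its site of synthesis and after release.

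With 1 file a side there is no replicate check, and no test between fractions was made. Intervals are exact binomial 95% intervals for percentages and order-statistic intervals for medians. They cover the counting of transcripts only, and transcripts share genes and sequence, so they are too narrow. The chromatin file listed 11667 transcripts and gave a score to 2431066 nucleotides, 9.64% of their length. The nucleoplasm file listed 12060 and scored 12194387, 53.3%. The labels state about 200000000 reads per replicate, and the sources used here do not give the reads behind each file. Transcripts were listed by Ensembl identifier without gene names, so the labelled fractions could not be checked against marker RNAs of chromatin, nucleoplasm or cytoplasm, and no pathway list could be applied.

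The members ran from 136 to 17970 nt, with a median of 2001 nt. They shared a median of 361 scored nucleotides, and at most 13426. Of the 6421728 nucleotides of the members, 29.2% were scored in chromatin and 76.6% in nucleoplasm. Nearly everything scored in chromatin was also scored in nucleoplasm (95.6%), whereas 36.4% of what was scored in nucleoplasm was scored in chromatin. The shared set thus followed the coverage of the chromatin file. Nucleotides of the members scored in nucleoplasm alone had a mean nucleoplasm score of 0.209, against 0.191 for the shared ones. The 81930 nucleotides scored in chromatin alone had a mean chromatin score of 0.0859, against 0.237 for the shared ones.

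Long transcripts were more often listed on the chromatin side alone. Of the 3134 transcripts found in the chromatin file alone, 60 were 10000 nt or longer, the longest being 84395 nt. Of the 3527 found in the nucleoplasm file alone, 1 was. Another 76 of that length were listed in both files. The median length was 1412 nt for the transcripts of chromatin alone and 890 nt for those of nucleoplasm alone. Of the transcripts of 10000 nt or longer, 54 were members.

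Most members were less abundant in chromatin than in nucleoplasm by the deposited abundance value. Its unit is not stated, and its products with length in kb summed to 811135 in the chromatin file and 751361 in the nucleoplasm file. The median abundance of the members was 26.6 in chromatin, with a range from 5.34 to 51637. In nucleoplasm it was 40.2, with a range from 7.53 to 34158. The median log2 ratio of chromatin to nucleoplasm, after adding 1 to each value, was -0.57 (95% interval -0.60 to -0.53). Over all 8533 transcripts in both files it was -0.77, and over the 6228 that were not members -0.83. Single transcripts ran from -6.00 to 6.25.

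At least 2 times more abundant in chromatin were 168 of the 2305 members, 7.29%, against a background of 7.36% over all transcripts in both files. At least 2 times more abundant in nucleoplasm were 681 members (29.5%), against a background of 36.1%. The members thus lay close to the background on the chromatin side and below it on the nucleoplasm side. Membership followed the coverage of the chromatin file, so the lower share on the nucleoplasm side cannot be told apart from the rule. When each abundance was divided by the sum over the transcripts in both files, the median of all transcripts moved by -0.89, and that of the members became -1.48. The members past 2 times then numbered 98 in chromatin and 1703 in nucleoplasm. The level of the ratio therefore depends on the scaling, and the differences between length classes below are relative to it.

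Transcripts under 200 nt, a size range that includes spliceosomal, nucleolar and other small noncoding RNAs, stood apart from all longer classes. The 91 members of this length had a median abundance of 3178 in chromatin (lowest 19.3, highest 22341) and 463 in nucleoplasm (lowest 11.1, highest 34158). Their median log2 ratio was 1.09 (0.46 to 1.17), and 49 of them (53.8%) were at least 2 times more abundant in chromatin against 2 (2.20%) in nucleoplasm. Over all 791 transcripts of this length in both files, the median was 1.19 and the shares were 62.3% and 6.32%. The shares of the short members were lower on both sides. They rest on 91 members, and on 2 of them in nucleoplasm, so no difference from that background is read from them. With 1 transcript for each family that shared a 60-nt pattern of scores, the median over the remaining 67 members was 1.17. The 2214 members of 200 nt or more had a median of -0.60. After division by the file sum the medians of the short and the longer members were 0.14 and -1.51. That division moves all ratios by nearly the same amount, so it could not test the gap between these classes. In the short class the level was thus near equality or toward chromatin, depending on the scaling.

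**Figure D1:**
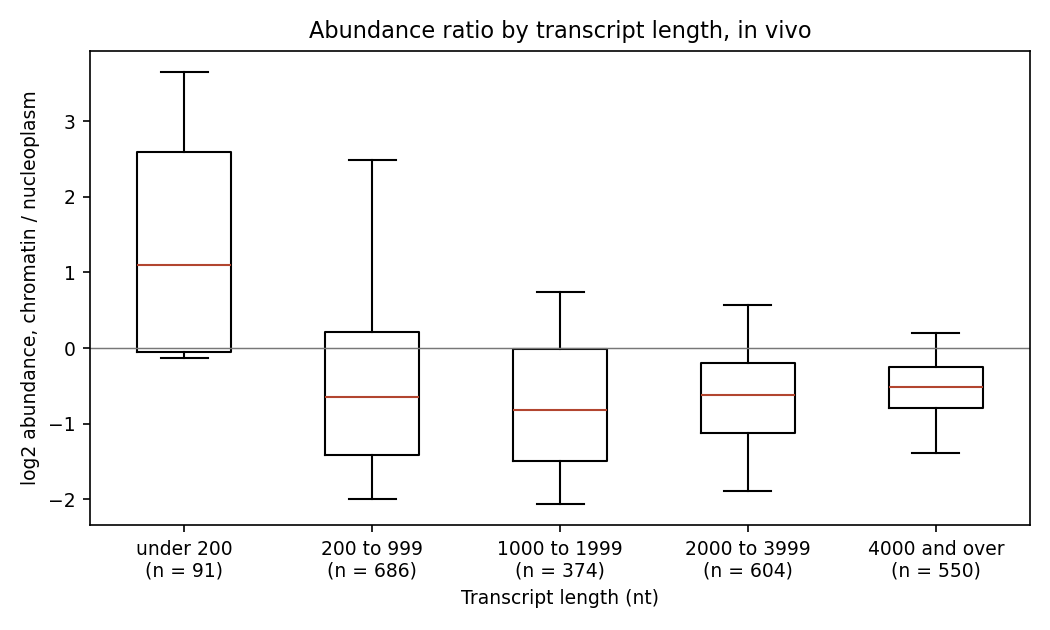
Log2 ratio of the deposited abundance value in chromatin over nucleoplasm (vertical axis, 1 added to each value) for the 2305 members by transcript length (horizontal axis). Boxes span the quartiles with the median as a line, and whiskers reach the 5th and 95th percentiles. The class under 200 nt has a median of 1.09, and the medians of the other 4 classes lie between -0.82 and -0.52.

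Among the longer members, the ratio was lowest in the middle of the length range. The median log2 ratio was -0.64 from 200 to under 1000 nt (n = 686), -0.82 from 1000 to under 2000 nt (n = 374), -0.62 from 2000 to under 4000 nt (n = 604) and -0.52 for 4000 nt or more (n = 550). It was -0.32 for the 54 members of 10000 nt or more, which are also in the class before. The class from 200 to under 1000 nt was spread widely. At least 2 times more abundant in chromatin were 81 of its members (11.8%), and 255 (37.2%) in nucleoplasm. Over all 2968 transcripts of this length in both files, the shares were 3.27% and 46.9%. Membership followed the coverage of the chromatin file, so the difference of these members from that background cannot be told apart from the rule. The median chromatin abundance of the members was 43.7 in this class and 17.4 for 4000 nt or more. The median log2 ratios over all transcripts in both files were -0.94, -0.98, -0.79 and -0.63 in the classes from 200 nt up. In that background the classes that start at 200 and 1000 nt thus lay close together. The wider gap between them among the members cannot be told apart from the rule either. Over all transcripts of each file, those under 200 nt made up 21.6% of the summed abundance times length in chromatin and 11.2% in nucleoplasm. In the refolded files the same shares were 28.1% and 13.1%.

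The abundance ratios of the in vivo and in vitro fractions ranked the members alike but differed in level. Over the 1573 members listed in both in vitro files, the log2 ratios of both preparations had a Pearson r of 0.955 and a Spearman rho of 0.945 across transcripts. The transcripts are not independent, and no source used here says whether the abundance values of the in vivo and in vitro files share a solvent control library. The median log2 ratio of these 1573 members was -0.46 in vivo and -0.96 in vitro.

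RNA on chromatin was the more reactive for most members. The median over transcripts of the mean score on shared nucleotides was 0.205 in chromatin (lowest 0.0101, highest 0.493) and 0.178 in nucleoplasm (lowest 0.00429, highest 0.505). The score was higher in chromatin for 1774 of the 2305 members. The median difference (chromatin minus nucleoplasm) was 0.0340 (0.0322 to 0.0363). The middle 80% of members lay between -0.0365 and 0.0837, and the extremes were -0.332 and 0.325.

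A difference of at least 0.05 was used as a fixed size in place of a test. By it 829 members were higher in chromatin, which is 36.0% of the members and, since the members are all transcripts that could be compared, also the background. Another 168 (7.29%) were lower and 1308 lay within 0.05. Odd and even nucleotides of the same transcript gave the same direction for 92.0% of members, and for all 997 members past 0.05. The 997 were chosen by the mean over these same nucleotides, so their agreement was nearly fixed in advance. The check concerns the sampling of nucleotides within the files and says nothing about repeat cultures.

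The excess depended on the level of each file. When each score was divided by the mean of its own file over the shared nucleotides, 43.9% of members were higher in chromatin, and 149 were higher and 358 lower by 0.05, against 829 and 168 with the deposited scores. With each score turned into its rank within its file, 58.3% were higher in chromatin. Whether the difference in level between the files lay in the RNA or in the preparation and scaling of the libraries was not tested.

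**Figure D2:**
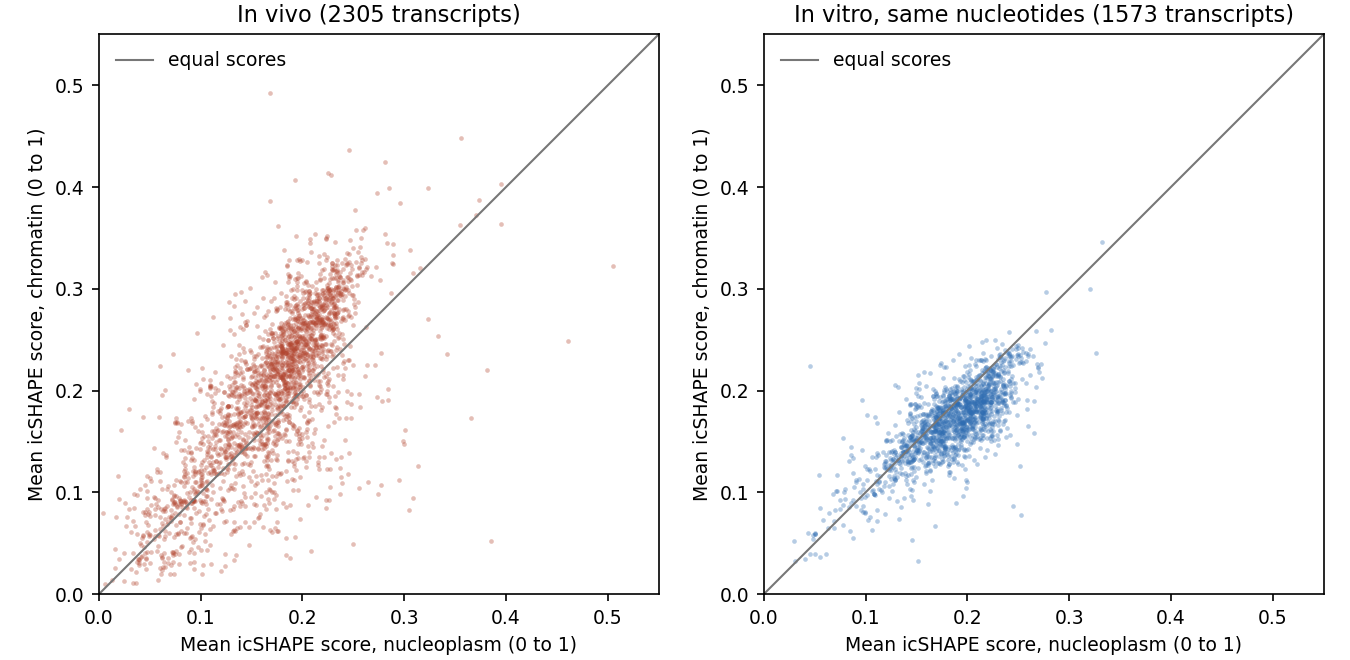
Mean icSHAPE score per transcript in nucleoplasm (horizontal axis) and chromatin (vertical axis), both on the 0 to 1 scale of the deposited scores, with 1 point per transcript and a line of equal scores. On the left, in vivo, most of the 2305 points lie above the line. On the right, in vitro, 27.97% of the 1573 points lie above it.

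The fractions differed most in their share of zeros and less in their share of open nucleotides. Scores of exactly 0 made up 16.4% of the 1790451 shared nucleotides in chromatin and 32.9% in nucleoplasm. Scores above 0 and under 0.5 made up 68.4% and 54.3%, and scores of 0.5 or more, called open here, 15.2% and 12.8%. The highest possible score of 1 was rarer in chromatin (3.24% against 3.73%). The median nucleotide scored 0.146 in chromatin and 0.075 in nucleoplasm, and the 95th percentiles were 0.854 and 0.871.

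Per transcript, the share of zeros was lower in chromatin for 96.7% of members, with medians of 17.0% and 32.6%. The share of open nucleotides was higher in chromatin for 57.4% of members, with medians of 11.9% and 11.5%. Scores were spread more evenly along the RNA in chromatin. The Gini index, which is 0 when every nucleotide has the same score and rises as fewer nucleotides hold the reactivity, was higher in chromatin for 3.56% of members. Its medians were 0.575 in chromatin and 0.679 in nucleoplasm. When zeros of either file were left out, the index was higher in chromatin for 7.01% of 1713 transcripts, and 71.5% of these had the higher score in chromatin. Their median score difference without zeros was 0.0354, so the excess was not limited to the zeros. Over all 2305 members with zeros kept it was 0.0340, but that set also held more thinly covered transcripts. How much of the excess lay in the zeros was therefore not measured.

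Most nucleotides at 0 or at 1 in nucleoplasm had the same score in chromatin or lay in the next score class. Of the 589690 shared nucleotides at 0 in nucleoplasm, 34.1% were also 0 in chromatin, 35.4% were above 0 and under 0.1, and 28.6% between 0.1 and 0.5. A score between 0.5 and 1 was reached by 1.75% of them, and a score of 1 by 0.119%. Of the 66824 nucleotides at 1 in nucleoplasm, 42.2% were also at 1 in chromatin and 38.3% between 0.5 and 1. Full exchange between closed (0) and open was rare: 11023 nucleotides were closed in nucleoplasm and open in chromatin, and 3127 the reverse, a ratio of 3.53. That ratio of counts depends on the number of zeros, which was larger in nucleoplasm (32.9% of shared nucleotides against 16.4%). Of the nucleotides at 0 in chromatin, 0.922% scored between 0.5 and 1 in nucleoplasm and 0.142% scored 1. Together the exchanged nucleotides were 0.790% of the shared ones.

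**Figure D3:**
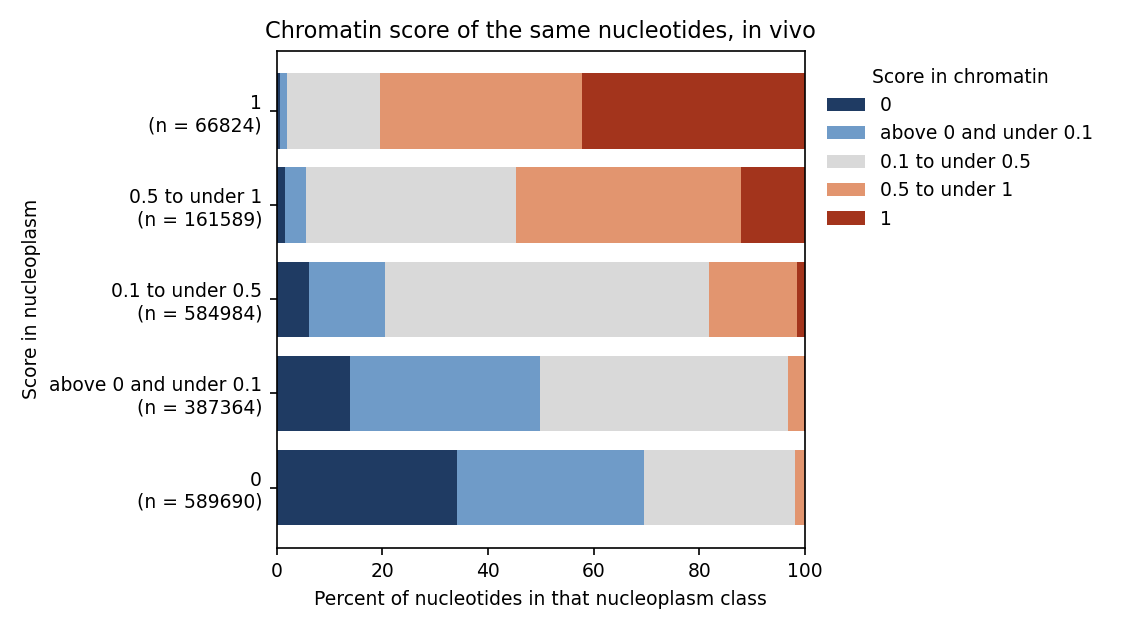
Shared nucleotides of the members grouped by their score in nucleoplasm (vertical axis, with the number in each class) and coloured by their score in chromatin, as a percent of each nucleoplasm class (horizontal axis). Of the nucleotides at 0 in nucleoplasm 34.1% are at 0 in chromatin, and of those at 1 in nucleoplasm 42.2% are at 1.

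The shape of the profile was largely shared. Pearson's r between the fractions, across the shared nucleotides of a transcript, had a median of 0.708 and ran from 0.0807 to 0.989. It was 0.5 or more for 89.0% of members and below 0.3 for 1.996%. Short RNAs had the most similar profiles: the median r was 0.916 under 200 nt, 0.768 from 200, 0.727 from 1000 and 0.699 from 2000 nt up to the next limit, and 0.636 for 4000 nt or more. Abundance moved with this as well, and the median chromatin abundance fell over these classes from 3178 to 17.4, and the part of each in the similarity was not tested.

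In windows of 50 nt the excess of chromatin was broad. Of 29008 windows in 2240 transcripts, 77.2% were higher in chromatin, 22.2% by 0.1 or more, and 2.57% were lower by as much. Of 739 transcripts with 10 or more windows, 85.4% had a window higher in chromatin by 0.1 and 23.7% had one lower by 0.1, and 126 had both. Windows under 0.05 in nucleoplasm were higher in chromatin in 84.7% of cases, and windows of 0.4 or more in 54.4%. Sorted by the chromatin score instead, windows under 0.05 were higher in chromatin in 28.4% of cases and windows of 0.4 or more in 98.4%, so the order depends on which file sorts the windows.

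Along the transcript, the difference between chromatin and nucleoplasm grew from the 5′ to the 3′ end. This pattern was examined after the data were seen. Each transcript was divided into 10 sections of equal length. In members of 1000 nt or longer (1528 transcripts), the mean over nucleotides of the first section was 0.220 in chromatin and 0.211 in nucleoplasm. In the last section it was 0.272 in chromatin and 0.187 in nucleoplasm. The difference therefore went from 0.00923 to 0.0851: chromatin rose and nucleoplasm fell toward the 3′ end. Each nucleotide counts equally in these means, so well-covered transcripts weigh more.

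The span was wider in longer RNAs. In members of 4000 nt or longer the difference went from 0.00044 in the first section to 0.110 in the last. In the 54 members of 10000 nt or longer it went from -0.0044 to 0.151, with 0.0492 in section 5. In those from 1000 to under 4000 nt it went from 0.0223 to 0.0611. Members under 1000 nt showed no such rise: the difference was 0.0447 in the first section and 0.0292 in the last. Over all members of 1000 nt or longer, the share of nucleotides with a score in chromatin was nearly even along the transcript. It was 24.5% in the first section, 27.7% in section 5 and 25.2% in the last. Within length classes the coverage was less even. From 1000 to under 4000 nt, nucleotides scored in both files numbered 57286 in the first section and 71266 in the last. These counts were 85074 and 68770 for 4000 nt or longer, and 18374 and 9893 for 10000 nt or longer. Whether this change in coverage had a part in the wider span was not tested.

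The difference was also larger toward the 3′ end when each transcript counted once. Among 916 members of 1000 nt or longer with at least 50 shared nucleotides on each side of the midpoint, the median difference was 0.0311 (0.0270 to 0.0341) in the 5′ side and 0.0603 (0.0574 to 0.0639) in the 3′ side. The 3′ side had the larger difference in 67.8% (64.7 to 70.8). With ranks within the file this was 66.0%. Over the first 100, the middle and the last 100 shared nucleotides of 1034 transcripts, the median differences were 0.0197, 0.0490 and 0.0573.

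**Figure D4:**
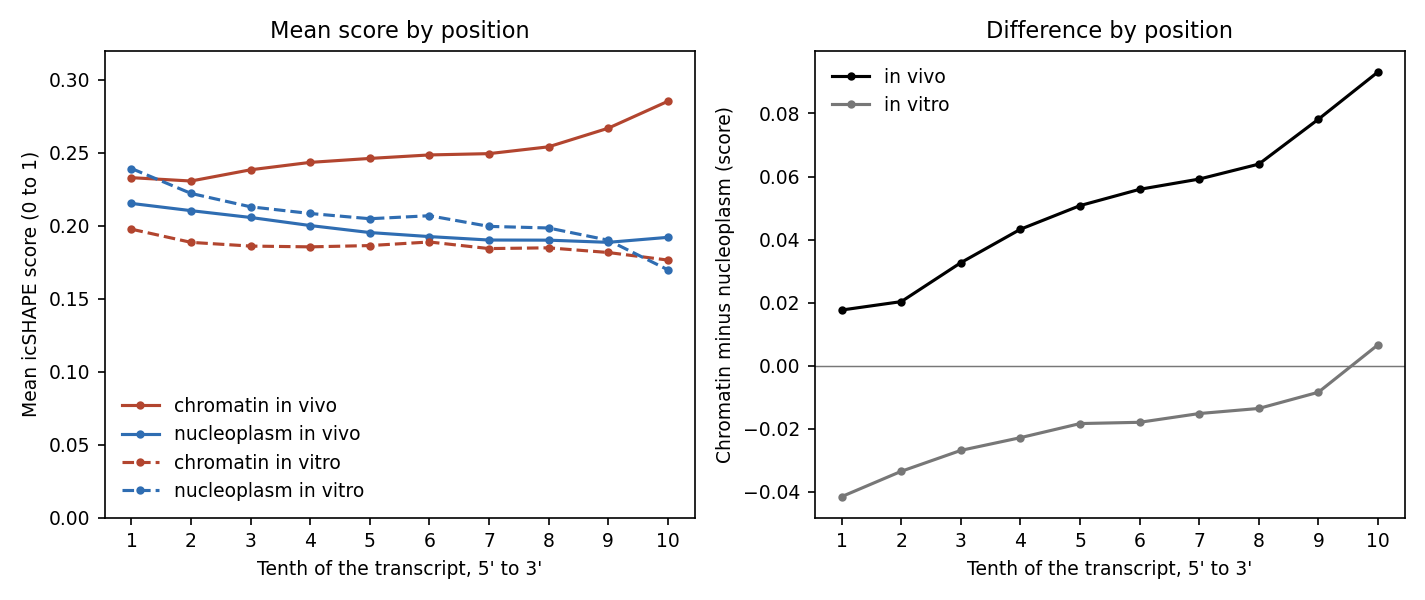
Mean icSHAPE score (left, 0 to 1 scale) and chromatin minus nucleoplasm (right, in score units) in each of 10 equal sections of the transcript from the 5′ to the 3′ end (horizontal axes), over nucleotides scored in all 4 nuclear files in 871 members of 1000 nt or longer. Lines join the means over nucleotides. The difference goes from 0.0176 to 0.0932 in vivo and from -0.0416 to 0.0066 in vitro.

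In the deposited scores, refolded RNA from the same fractions gave a difference of the opposite sign that also rose toward the 3′ end. For 1573 members, 100 or more nucleotides were scored in all 4 nuclear files, 1552909 nucleotides in all. In each of these members every nucleotide shared in vivo was also scored in both in vitro files. The median of the mean scores was 0.218 in chromatin and 0.180 in nucleoplasm in vivo, and 0.172 and 0.189 in vitro. In vivo 84.7% (82.8 to 86.4) were higher in chromatin, with a median difference of 0.0422. In vitro 27.97% (25.8 to 30.3) were, with a median of -0.0141 (-0.0156 to -0.0125). The files also differed in level. Over these nucleotides the means of chromatin and nucleoplasm were 0.243 and 0.193 in vivo, and 0.185 and 0.202 in vitro. Division by the file mean, which turned the in vivo direction over all members, was not applied to the 4 files. The opposite signs thus hold for the deposited scores, and the opposite majorities also for ranks.

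Per transcript, the in vivo difference exceeded the in vitro one for 89.3% of the 1573 members, by a median of 0.0584 (0.0557 to 0.0605). Higher in chromatin in vivo and lower in vitro were 946 members, higher in both 386, lower in both 187, and lower in vivo but higher in vitro 54. Past 0.05, 647 members (41.1%) were higher in chromatin in vivo and 54 (3.43%) lower. In vitro 19 (1.21%) were higher and 132 (8.39%) lower. The in vivo and in vitro differences had a Pearson r of 0.243 across transcripts. With ranks within the file, 65.7% of the 1573 were higher in chromatin in vivo and 27.7% in vitro.

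Zeros followed the same turn. In vivo they made up 15.9% of the nucleotides scored in all 4 files in chromatin and 32.5% in nucleoplasm, and in vitro 40.8% and 27.7%. Exchange between closed and open went with it: in vivo 9861 nucleotides were closed in nucleoplasm and open in chromatin and 2579 the reverse, and in vitro 5484 and 12434. These are counts that also depend on the number of zeros in each file.

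The rise of the difference toward the 3′ end, in contrast, was present in both preparations, but the fractions moved differently. In vivo, over nucleotides scored in all 4 files, chromatin went from 0.233 in the first section to 0.285 in the last and nucleoplasm from 0.215 to 0.192. In vitro both fell, chromatin from 0.198 to 0.177 and nucleoplasm from 0.239 to 0.170. In 728 members of 1000 nt or longer with enough nucleotides on both sides of the midpoint in all 4 files, the median in vitro difference was -0.0282 in the 5′ side and -0.00995 in the 3′ side, and the 3′ side was the larger in 75.7% (72.4 to 78.8). In vivo the same nucleotides gave 0.0347 and 0.0635, with the 3′ side larger in 68.4%. The median rise from the 5′ to the 3′ side was 0.0239 (0.0200 to 0.0273) in vivo and 0.0172 (0.0156 to 0.0190) in vitro, and 56.9% of transcripts had the larger rise in vivo.

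Over the nucleotides scored in all 4 files, the median differences of the length classes, from the shortest to the longest, were 0.0101, 0.0364, 0.0427, 0.0503 and 0.0503 in vivo and 0.00069, -0.0079, -0.0123, -0.0198 and -0.0264 in vitro. The short class lay nearest to equality in both preparations. In vitro the percent higher in chromatin was lower in each longer class, from 53.8% (n = 91) under 200 nt to 38.5% (n = 611), 26.3% (n = 259), 19.4% (n = 351) and 7.66% (n = 261) in the classes that start at 200, 1000, 2000 and 4000 nt. In vivo, over all 2305 members, the same classes had 62.6%, 80.6%, 79.4%, 77.3% and 72.7%. With ranks, 13.2% of the members under 200 nt were higher in chromatin in vivo, which turns their direction. For members of 200 nt or more the value with ranks was 60.2%.

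The direction was least even where coverage was thin. In vivo 56.97% of members with 100 to under 200 shared nucleotides were higher in chromatin, and 77.2%, 87.2%, 87.8% and 94.3% in the classes that start at 200, 400, 800 and 1600. The median difference in the last class (n = 297) was 0.0576. In 4 equal groups by chromatin abundance, from lowest to highest, the values were 56.3%, 78.1%, 88.4% and 85.1%. The 732 members with fewer than 100 nucleotides in all 4 files had 60.4%. Over all scored nucleotides of each file, at least 100 in each, the percentage was 55.2% of 2436 transcripts.

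The abundance ratio and the score difference were nearly unrelated across members. Spearman's rho between the log2 abundance ratio and the score difference was 0.072 across the 2305 members, which share both files. Of the 168 members at least 2 times more abundant in chromatin, 71.4% had the higher score there. The value was 73.7% for the 681 more abundant in nucleoplasm and 79.1% for the 1456 within 2 times.

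The 168 members whose score was lower in chromatin by 0.05 or more were described separately, since they ran against the majority. Their median scores were 0.104 in chromatin and 0.191 in nucleoplasm, while the 829 on the other side had 0.263 and 0.188. The nucleoplasm medians of these groups, which were chosen by the difference, lay close together and the chromatin medians did not. The median chromatin abundance was 13.8 in the first group and 31.5 in the second, and the median number of shared nucleotides 184.5 and 615. Of the first group, 54 could be followed in vitro, where 11 were higher in chromatin and the median difference was -0.0302. Of the second, 647 could be followed, where 194 were higher and the median was -0.0102.

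The extremes among members with 300 or more shared nucleotides are given by identifier. ENSMUST00000098334, of 8869 nt, had the highest difference: its mean score was 0.387 in chromatin and 0.168 in nucleoplasm over 420 nucleotides. Chromatin was higher in each of its 8 windows with 25 or more shared nucleotides, all near the 3′ end, and the widest gap was 0.562 against 0.247. Its abundance was 10.9 in chromatin and 18.96 in nucleoplasm. In refolded nucleoplasm RNA the same nucleotides averaged 0.153.

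ENSMUST00000184450, of 3329 nt, followed with 0.437 in chromatin and 0.246 in nucleoplasm over 372 nucleotides. Refolded, the same nucleotides averaged 0.156 and 0.142, and in the cytoplasm in vivo 336 of them averaged 0.117. Its high scores lay in the 5′ side, between 0.448 and 0.601 per window in chromatin from nucleotide 351 to 650. Its abundance was 14.6 in chromatin and 22.2 in nucleoplasm.

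At the other end, ENSMUST00000045376, of 1781 nt, had 0.0419 in chromatin and 0.208 in nucleoplasm over 452 nucleotides. In vitro the values were 0.170 and 0.236, and in the cytoplasm in vivo 0.277, so chromatin in vivo was the lowest of the 5 files. The nucleotides at 0 were alike in chromatin and nucleoplasm (23.2% and 25.2%), while open ones made up 0.221% and 13.7%. Its abundance was 27.3 and 50.7.

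ENSMUST00000181170, of 3544 nt, had 0.0351 in chromatin and 0.188 in nucleoplasm over 305 nucleotides. It was among the abundant members, at 3771 in chromatin and 1864 in nucleoplasm. Only 349 of its nucleotides were scored in chromatin and 324 in nucleoplasm, and of the 305 shared ones 51.8% and 41.6% were at 0. Refolded, it kept the direction, with 0.0862 from chromatin and 0.245 from nucleoplasm. The difference was -0.159 in vitro and -0.153 in vivo, so it was not particular to living cells. Its widest gap lay at nucleotides 1951 to 2000, with 0.0145 in chromatin and 0.482 in nucleoplasm.

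**Figure D5:**
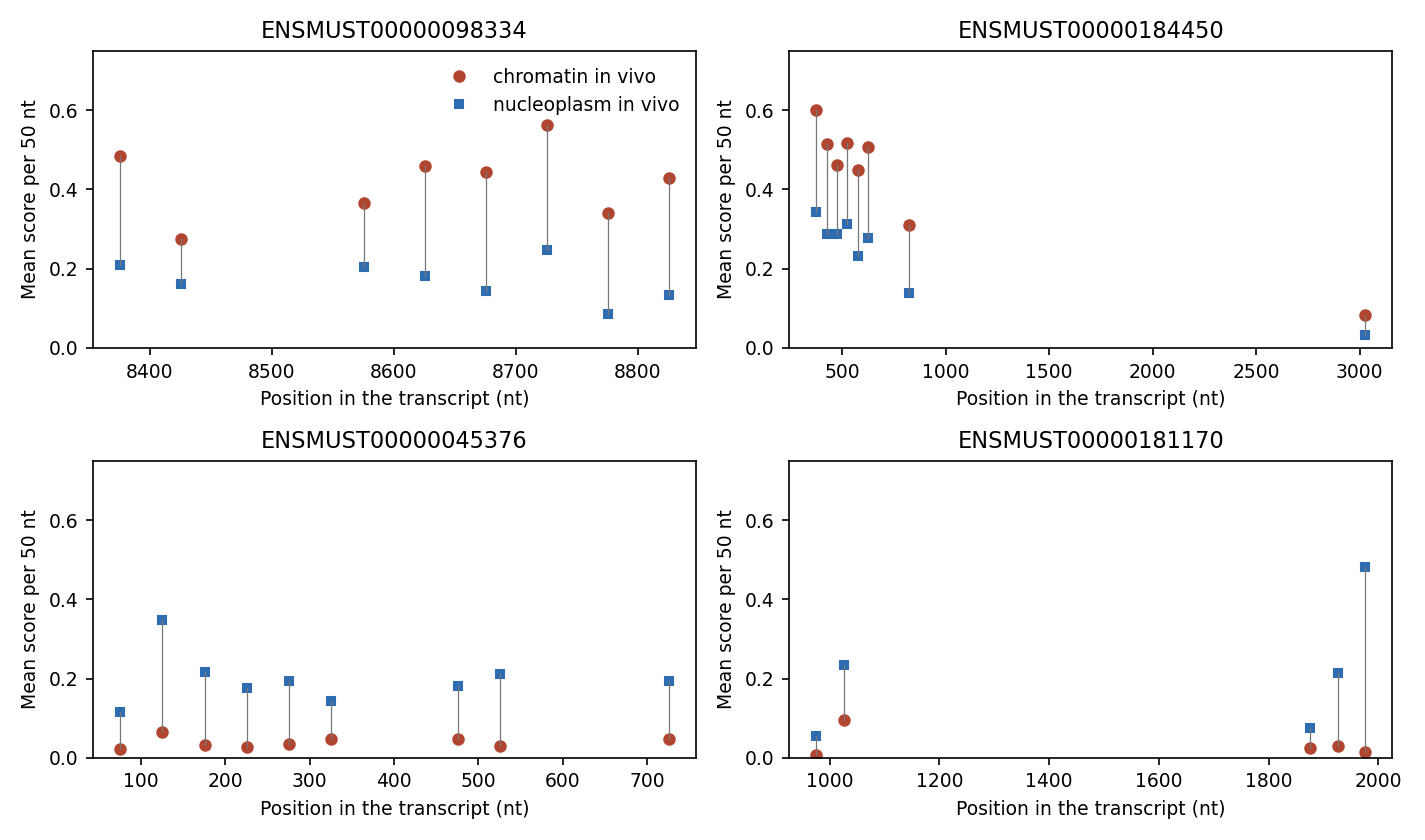
Mean score per 50-nt window with 25 or more shared nucleotides (vertical axis, 0 to 1 scale) by position in the transcript (horizontal axis, nt) for the 4 named transcripts, in chromatin (circles) and nucleoplasm (squares) in vivo, joined by a line. Chromatin is higher in every window shown of the upper pair and lower in every window shown of the lower pair.

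The repeat every 3 nt that marks codon-sized periodicity was slightly weaker in chromatin. It was measured as the power of the profile at that period over the mean of neighbouring frequencies in 900 members with 500 or more shared nucleotides. It was stronger in chromatin for 41.4% (38.2 to 44.7). A ratio above 5 was reached by 26.8% in chromatin and 29.7% in nucleoplasm, 22.4% in both, 4.33% in chromatin alone and 7.22% in nucleoplasm alone. At control frequencies of 0.24 and 0.43 per nt no more than 1.67% reached it in either file. The median abundance over all members was lower in chromatin (26.6 against 40.2), and depth per nucleotide is unknown. Whether these had a part in the weaker repeat was not tested.

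Other pairs of fractions are given beside the mES nuclear pair, and the differences between pairs were not tested. In 1527 members with 100 nucleotides scored in chromatin, nucleoplasm and cytoplasm, the median scores were 0.231, 0.194 and 0.208. Chromatin was the highest in 62.0%, cytoplasm in 32.5% and nucleoplasm in 5.50%, and nucleoplasm was the lowest in 54.6%. In HEK293 cells, which share no file with the mES pair but used another rRNA removal kit and sequencer, the chromatin score exceeded the nucleoplasm score for 50.4% of 587 transcripts, with a median difference of 0.000158. The difference also rose toward the 3′ end there, although both fractions fell, chromatin from 0.232 in the first section to 0.189 in the last and nucleoplasm from 0.302 to 0.131. Among 165 transcripts of 1000 nt or longer the median difference was -0.0312 in the 5′ side and 0.0381 in the 3′ side, with the 3′ side larger in 75.2% (67.8 to 81.5). In mES cells chromatin against cytoplasm gave 78.4% of 616 and nucleoplasm against cytoplasm 69.9% of 3444, and both of these share a file with the chromatin and nucleoplasm pair.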

How the data were processed

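The deposited files gave, per transcript, its length, an abundance signal whose unit the authors do not state, and a score as a fraction from 0 to 1 per nucleotide or a missing value. The submitters' processing notes name Bowtie2, UMI-tools, hg38 and mm10, without tool versions. Score scaling and read filters are not given in the sources used. From these values, mean scores were taken over nucleotides scored in both files, with at least 100 per transcript, and log2 abundance ratios after adding a pseudocount of 1. Python 3.11.15 with numpy 2.4.6, pandas 2.3.3, scipy 1.17.1 and matplotlib 3.10.9 was used, and the scripts were tested on simulated data. A family was a set of transcripts that had the same run of zeros and non-zeros over 60 nt. Named transcripts were the 2 highest and the 2 lowest differences among members with 300 or more shared nucleotides whose odd and even nucleotides had the same direction. The members and lists were chosen with earlier results of these data known. Sequences and gene names were not used here, because the reference tables hold no identifier of this kind. Read depth behind a score is unknown, so the number of scored nucleotides limits the precision.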

Additional observations from a re-analysis of the deposited data

Results flagged for a closer look

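The chromatin and nucleoplasm scores differed in opposite directions in living cells and in refolded RNA. Over the same nucleotides of 1573 transcripts, the median difference (chromatin minus nucleoplasm) was 0.0422 in vivo and -0.0141 in vitro. The difference between the preparations was not tested, since each had 1 file a side. It was not examined with scores divided by the file mean, a scaling that turned the in vivo direction over all 2305 members.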

How the results depend on the processing

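The score was higher in chromatin for 76.96% of members, and the percentage stayed above 50 under all alternatives but 1. It was 58.3 with ranks, 71.5 over nucleotides above 0, 84.7 over nucleotides scored in all 4 files, 55.2 over all scored nucleotides, 71.4 and 88.1 with at least 50 and 300 shared nucleotides, 82.4 with abundance within 1.5 times, and 89.98 with medians. It reversed, to 43.9, with scores divided by the file mean. The median difference moved to 0.0422 (all 4 files), 0.0271 and 0.0477 (50 and 300 shared nucleotides) and 0.0403 (abundance within 1.5 times). The counts past 0.05 became 1254 higher and 275 lower past 0.03, 117 and 47 past 0.1, and 149 and 358 with scores divided by the file mean. The median log2 abundance ratio was -0.41 with a pseudocount of 10 and -1.48 after division by the file sum, where 98 members were 2 times higher in chromatin.

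The in vitro percentage was 31.8 and 22.6 with at least 50 and 300 nucleotides and 40.3 above 0. The in vivo difference exceeded the in vitro one for 75.02% with ranks, 86.2% and 95.0% with at least 50 and 300 nucleotides, and 86.1% above 0. The Gini percentage was 7.01 above 0 and 0.761 with 300 nucleotides. The median r was 0.640 by Spearman and 0.691 with 300 nucleotides. Nucleotides exchanged between closed and open made up 2.83% with open at 0.3 and 0.154% at 0.8. The 3′ side had the larger difference in 72.6% above 0 and 62.1% with abundance within 1.5 times. The cause of these shifts was not tested. Of 53 alternatives, 16 stayed within the interval of the reported value or within 1.5 times of a count. The 5 for the position pattern and 1 for the in vitro comparison were chosen after seeing the data. No paired analysis was possible because each group held 1 file. Depth per nucleotide is unknown, and thinly covered transcripts had the smallest excess.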
